A study of Rattus norvegicus with 16 samples.

Results

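The endoplasmic reticulum (ER) chaperones and the genes of the unfolded protein response were followed in 2 sorted cell populations of the rat carotid body, a small arterial organ in the neck that senses blood oxygen. The members are 33 listed genes, chosen by name with earlier results of these data known. Each is read by its single-gene probe on an Affymetrix gene array (by the probe with the highest mean where there were several). Of the 33 genes, 31 were measured, out of 18166 genes named by single-gene probes, and each of the 31 had 1 such probe. Derl2 and Sesn2 had none and were left out. The measured members were grouped by role into 15 chaperones and folding enzymes, 6 genes of ER-associated degradation, 5 stress sensors and factors, and 5 genes of the Atf4 arm.

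Proteins bound for secretion, for the cell surface or for dense-core vesicles are folded in the ER, where chaperones hold the unfolded chains and disulfide isomerases form their cross-links. When unfolded chains build up, the membrane sensors IRE1, PERK and ATF6 start the unfolded protein response. IRE1 splices the Xbp1 transcript and ATF6 is cleaved to a transcription factor, and both factors raise chaperone and degradation genes. PERK slows translation through phosphorylation of eIF2alpha, which favours translation of ATF4, a factor that raises genes of amino acid supply and, through the protein CHOP, of cell death.

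Wistar rats of 9 to 11 weeks breathed ambient air (normoxia) or were kept in hypoxic chambers for 3 days. Their carotid bodies from both sides were mixed and dispersed with enzymes, and flow cytometry with an HNK-1 antibody separated neuroblasts, which carry that sugar epitope, from HNK-1 negative cells, which the labels call glomus cells, the chemoreceptor cells of the organ. The groups were hypoxic neuroblasts, normoxic neuroblasts, hypoxic glomus cells and normoxic glomus cells, with 4 arrays each, hybridised with cDNA from 500 pg of RNA a sample. Whether the 4 samples of a group stem from different animals is not labelled, so p-values measure only the spread between these samples, which may be technical. No array batch is labelled either, and a batch effect could coincide with the oxygen condition, from which it cannot be told apart.

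All values are the deposited values, taken to be log2. Array medians ran from 4.71 to 4.94 in hypoxic and from 4.40 to 4.64 in normoxic samples. The SD over the probes of an array ran from 1.7768 to 2.0881 in hypoxic and from 2.1034 to 2.2256 in normoxic samples. What this narrower range of values in hypoxic samples adds to the differences was not tested. The array of hypoxic neuroblast replicate 1 was the least like its group (mean correlation over probes 0.914, and 0.9485 or more for the other arrays). Th, which encodes the enzyme that limits catecholamine production and is the defining glomus cell marker, was at 11.13 ± 1.20 in hypoxic and 12.29 ± 0.19 in normoxic neuroblasts, and at 12.11 ± 0.28 in hypoxic and 12.62 ± 0.09 in normoxic glomus cells (SD, n = 4 each). Dcx, an immature neuron marker, was at 5.91 ± 0.49 in hypoxic and 7.07 ± 0.51 in normoxic neuroblasts, and at 5.50 ± 0.29 in hypoxic and 5.82 ± 0.20 in normoxic glomus cells.

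Promoters are shown because the factors ATF6 and XBP1 are known to act through short elements near the start of chaperone genes, and ATF4 through another. RefSeq promoters of GRCr8, from 250 bases before to 50 after the start, were found for 25 of the 31 members and were searched on both strands. The ER stress response element ERSE (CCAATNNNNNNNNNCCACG) was in the promoters of 8 members, namely Calr, Canx, Creld2, Derl3, Dnajc3, Hsp90b1, Hspa5 and Xbp1, and in 22 of all 33469 promoters (0.0657%). Its variant ERSE-II (ATTGGNCCACG) was in 3, Dnajb11, Herpud1 and Hyou1, and in 0.0508% of all promoters. The element UPRE (TGACGTG) was in Hspa5 and Hyou1 and in 1.81% of all promoters, and the ATF4 element CARE (TGATGNAA) was in Chac1, Herpud1 and Trib3 and in 3.98%. In Hyou1 the UPRE overlaps an ERSE-II. A match is a description of letters, and no match says nothing of the factor.

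Below are 10 windows around these elements on the strand of the gene, with the matching letters in capitals. The first 5 hold an ERSE, in Hspa5 (chr3:38452861-38453011, plus strand), Calr (chr19:40213117-40213173, plus strand), Xbp1 (chr14:84604538-84604596, plus strand), Creld2 (chr7:121789219-121789277, plus strand) and Dnajc3 (chr15:102432514-102432572, plus strand). Hspa5 also shows its UPRE. Herpud1 (chr19:10614801-10614911, minus strand), Hyou1 (chr8:53602671-53602824, plus strand) and Dnajb11 (chr11:91672800-91672830, minus strand) hold an ERSE-II. Trib3 (chr3:161275534-161275574, minus strand) and Chac1 (chr3:126795944-126795991, plus strand) hold a CARE, as does the Herpud1 window. The sets were chosen so that each pairs genes that changed with genes that did not pass the test.
Hspa5: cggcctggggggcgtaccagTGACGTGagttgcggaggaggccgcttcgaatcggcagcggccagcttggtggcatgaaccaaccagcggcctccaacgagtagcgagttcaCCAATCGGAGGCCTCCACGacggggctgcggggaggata
Calr: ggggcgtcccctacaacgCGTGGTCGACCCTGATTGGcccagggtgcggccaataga
Xbp1: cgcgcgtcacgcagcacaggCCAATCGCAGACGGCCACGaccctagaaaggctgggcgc
Creld2: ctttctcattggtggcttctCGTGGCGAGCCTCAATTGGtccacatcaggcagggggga
Dnajc3: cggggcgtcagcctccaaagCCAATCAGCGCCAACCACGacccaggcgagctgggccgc
Herpud1: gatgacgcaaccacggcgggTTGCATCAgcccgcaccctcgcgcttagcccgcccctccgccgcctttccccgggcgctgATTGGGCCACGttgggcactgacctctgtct
Hyou1: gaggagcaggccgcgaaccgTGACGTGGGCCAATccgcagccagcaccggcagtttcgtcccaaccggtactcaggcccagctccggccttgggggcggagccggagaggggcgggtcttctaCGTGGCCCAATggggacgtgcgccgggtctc
Dnajb11: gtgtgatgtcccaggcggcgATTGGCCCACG
Trib3: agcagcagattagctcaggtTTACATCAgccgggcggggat
Chac1: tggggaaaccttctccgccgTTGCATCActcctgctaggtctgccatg

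The main comparison asks how 3 days of hypoxia changed these genes within each population. In neuroblasts 15 of the 31 members fell and 2 rose, and in glomus cells 13 fell and 2 rose (limma, adjusted p under 0.05, Benjamini-Hochberg over 30429 probes). The genes that fell were chaperones, degradation genes and sensors of the stress response, and the genes that rose were the same pair in both populations, the chaperone cofactor Sdf2l1 and the Atf4 target Trib3. Over all probes, 13.7% fell and 18.4% rose in neuroblasts, and 9.5% fell and 9.37% rose in glomus cells, so that 48.4% and 41.9% of the members fell against those backgrounds. The share of members that rose, 6.45% in each population, was under the share of all probes that rose.

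The median difference of the members was -0.62 in neuroblasts and -0.30 in glomus cells (log2, hypoxic minus normoxic), where the median of all probes was 0.25 and 0.17. Centring each array on its median moved the all-probe median to -0.03 in neuroblasts and -0.04 in glomus cells and the member median to -0.91 and -0.52. With that centring 17 members fell and 0 rose in neuroblasts, where Derl1 (-0.91, limma adjusted p = 0.0484) and Ern1 (-0.88, 0.0236) joined while Sdf2l1 and Trib3 ceased to pass, and 13 fell and 1 rose in glomus cells. It also turned the all-probe split to 1826 higher and 5464 lower in neuroblasts and to 1370 higher and 3783 lower in glomus cells, against 5596 and 4159, and 2852 and 2892, as deposited. Quantile normalization instead made the member medians smaller, -0.49 in neuroblasts and -0.22 in glomus cells, with all-probe medians of 0.03 and 0.01. Under it 13 members fell and 2 rose in neuroblasts, and 12 fell and 2 rose in glomus cells. Its all-probe split was 3278 higher and 3701 lower in neuroblasts and 2215 higher and 2490 lower in glomus cells.

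The members are bright probes: by mean value, 25 of the 31 lay in the brightest 25% of all probes, 5 in the next 25% and 1 in the 25% after that. Bright probes fell more often than dim ones in general. In the brightest 25% a share of 37.2% of all probes fell in neuroblasts and 26.7% in glomus cells, and in the dimmest 25% the shares were 0.42% and 0.118%. The median difference of the brightest 25% was -0.33 in neuroblasts and -0.17 in glomus cells, beside member medians of -0.62 and -0.30. In the dimmest 25% it was 0.29 and 0.20. The members' shares of 48.4% and 41.9% lay above those of the brightest 25%, a description with no test.

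**Figure D1:**
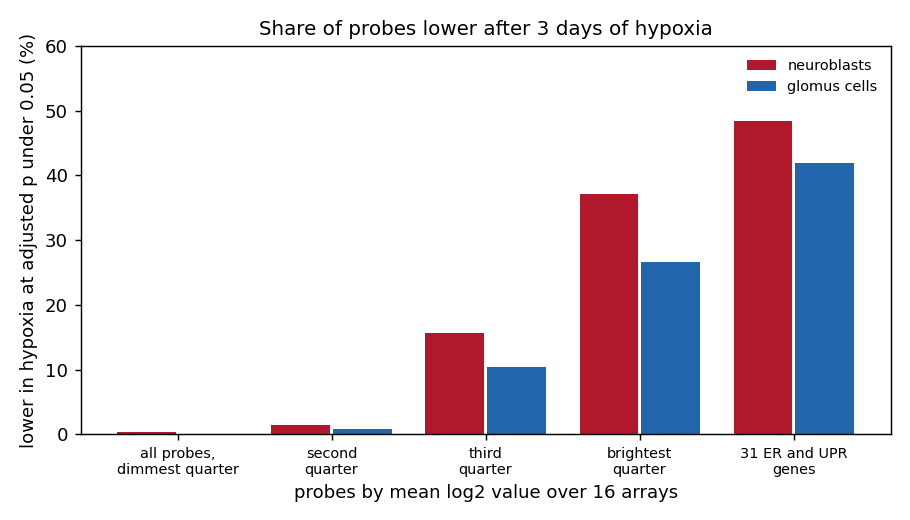
Percent of probes lower after 3 days of hypoxia at adjusted p under 0.05 (vertical axis) for all probes in 4 equal classes by mean log2 value and for the 31 ER and unfolded protein response genes, in neuroblasts (red) and glomus cells (blue). The share among the 31 genes, 48.4% in neuroblasts and 41.9% in glomus cells, is above the 37.2% and 26.7% of the brightest class.

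Of the members that fell, 12 were shared by both populations, 80% of the 15 in neuroblasts and 92.3% of the 13 in glomus cells. Over all probes 2430 fell in both, 58.4% of the 4159 in neuroblasts and 84% of the 2892 in glomus cells. Without hypoxic neuroblast replicate 1, by limma 13 members fell and 1 rose in neuroblasts and 14 fell and 2 rose in glomus cells, whose fit shares its spread. These are bulk samples, in which fewer cells of a type and less RNA per cell cannot be told apart.

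**Figure D2:**
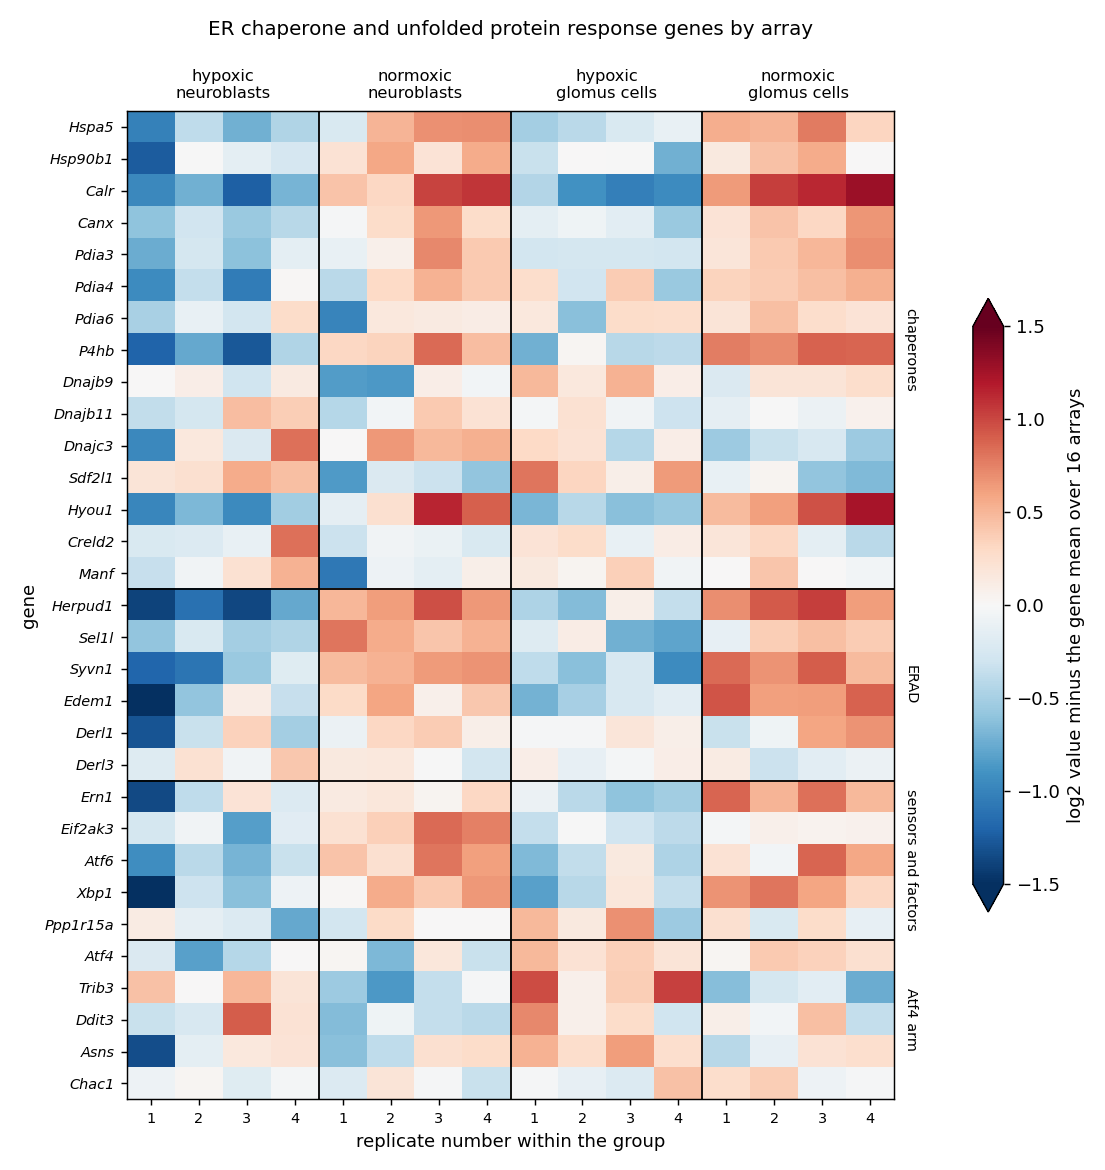
Deposited log2 values of the 31 genes (rows, by role) in the 16 arrays (columns, 4 per group), each gene centred on its mean over all arrays, in red where higher and blue where lower. Most chaperones, degradation genes and sensors are blue in the hypoxic columns of both populations, and Sdf2l1 and Trib3 are red there.

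Marker lists of other cells and states moved with hypoxia too, and their part in the falls was not tested. Beside all the marker counts below, 13.7% of all probes fell and 18.4% rose in neuroblasts, and 9.5% fell and 9.37% rose in glomus cells. Of 10 measured immediate early and dissociation stress genes (12 listed), 9 fell and 1 rose in neuroblasts and 4 fell and 1 rose in glomus cells. The sum of their linear levels was 3189 to 5587 in hypoxic and 13666 to 17280 in normoxic neuroblasts, and 5594 to 8566 in hypoxic and 12027 to 13438 in normoxic glomus cells. Jun, an immediate early factor, was at 8.93 ± 0.72 in hypoxic and 11.66 ± 0.11 in normoxic neuroblasts (SD, n = 4 each).

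The macrophage list of 12 genes had 0 called members in neuroblasts by limma, with 1 at an unadjusted p under 0.05, and 4 higher in glomus cells. Its sum was 296 to 456 in hypoxic against 206 to 316 in normoxic neuroblasts, and 1123 to 1946 in hypoxic against 416 to 1847 in normoxic glomus cells. Of 8 endothelial genes (10 listed), 2 rose in each population, and the sum was 318 to 419 in hypoxic against 130 to 202 in normoxic neuroblasts and 1330 to 1769 in hypoxic against 479 to 861 in normoxic glomus cells. The endothelial junction gene Cldn5 was at 7.34 ± 0.87 in hypoxic and 4.74 ± 0.55 in normoxic neuroblasts, and at 10.16 ± 0.19 in hypoxic and 8.39 ± 0.27 in normoxic glomus cells. Most of the endothelial sum in hypoxic glomus cells is Cldn5. In glomus cells the differences of 6 endothelial genes were positive and those of 2, Tek and Tie1, negative. The median difference of the list was 0.53 in neuroblasts and 0.38 in glomus cells (0.25 and 0.17 with each array centred on its median). Of 6 type II and glial genes (8 listed), 2 rose in neuroblasts and 1 in glomus cells, with sums of 739 to 1127 in hypoxic against 329 to 539 in normoxic neuroblasts and 242 to 406 in hypoxic against 129 to 259 in normoxic glomus cells. Most of the glial sum in hypoxic neuroblasts is S100b, at 9.02 ± 0.43 in hypoxic and 6.69 ± 0.47 in normoxic neuroblasts. The median difference of the glial list was 0.57 in neuroblasts and 0.49 in glomus cells (0.29 and 0.27 with each array centred on its median).

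Fibroblasts and plasma cells are secretory cells rich in ER. Of 10 fibroblast genes 1 fell in each population, and the sum was 461 to 1472 in hypoxic against 626 to 4686 in normoxic neuroblasts and 465 to 706 in hypoxic against 561 to 1207 in normoxic glomus cells. Of 7 B and plasma cell genes (8 listed), 2 rose in neuroblasts and 0 passed in glomus cells by limma, with 1 at an unadjusted p under 0.05, and the sums were 174 to 270 in hypoxic against 138 to 158 in normoxic neuroblasts and 159 to 194 in hypoxic against 130 to 174 in normoxic glomus cells. The plasma cell gene Jchain stayed between 2.88 and 4.05 over all arrays. The lowest value in the whole table is 0.87, so no marker was listed at 0.

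Of 6 pericyte and smooth muscle genes (8 listed), 1 rose and 1 fell in each population, and the sum was 2370 to 3950 in hypoxic against 5055 to 5756 in normoxic neuroblasts and 3288 to 4085 in hypoxic against 6594 to 7496 in normoxic glomus cells. Most of that sum is Rgs5, a signalling regulator listed here as a pericyte gene, at 11.44 ± 0.27 in hypoxic and 12.32 ± 0.07 in normoxic neuroblasts, and at 11.78 ± 0.15 in hypoxic and 12.77 ± 0.09 in normoxic glomus cells. Which cells Rgs5 came from was not tested. The group means of the other 5 genes lay between 4.17 and 6.53, and the median difference of the list was 0.16 in neuroblasts and 0.25 in glomus cells (-0.12 and 0.03 with each array centred on its median). The lists of the sorted cells themselves moved as well. Of 4 neuroblast genes 4 fell in neuroblasts, with a sum of 952 to 1435 in hypoxic against 2086 to 3651 in normoxic neuroblasts, and 0 passed in glomus cells, with 0 at an unadjusted p under 0.05. Of 6 glomus and catecholaminergic genes 3 fell and 1 rose in neuroblasts and 2 fell in glomus cells, with sums of 4237 to 12528 in hypoxic against 14183 to 15607 in normoxic neuroblasts and 11973 to 15214 in hypoxic against 19504 to 21469 in normoxic glomus cells. Epas1 had the lowest difference of that list (-1.96 in neuroblasts and -1.57 in glomus cells) and Slc18a1 the highest (1.51 and 0.17). The median difference of the list was -0.51 in neuroblasts and -0.32 in glomus cells.

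Among the 15 chaperones and folding enzymes, 8 fell and 1 rose in neuroblasts (median -0.71) and 6 fell and 1 rose in glomus cells (median -0.48). Calr encodes calreticulin, a calcium-binding lectin chaperone of the ER lumen. It read 8.36, 8.60, 8.10 and 8.63 in hypoxic neuroblasts, against 9.75, 9.63, 10.34 and 10.40 in normoxic neuroblasts. In glomus cells it read 8.88, 8.41, 8.30 and 8.38 under hypoxia, against 9.96, 10.36, 10.45 and 10.61 in normoxia. Each hypoxic value lay below each normoxic value. The difference was -1.61 ± 0.21 in neuroblasts (limma standard error, adjusted p = 3.3e-05) and -1.85 ± 0.21 in glomus cells (adjusted p = 2.71e-05), or 3.05-fold and 3.61-fold lower. Canx, the membrane-bound partner lectin of Calr, fell by 0.76 ± 0.17 in neuroblasts and by 0.64 ± 0.17 in glomus cells (limma adjusted p = 0.00321 and 0.0158). The glomus cell call of Canx was lost without normoxic glomus replicate 4 (adjusted p = 0.0632) or hypoxic glomus replicate 4 (0.0596).

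Hspa5 encodes BiP, the chief Hsp70 chaperone of the ER, which also binds and silences the stress sensors. It read 9.18, 9.82, 9.47 and 9.75 in hypoxic neuroblasts, against 9.97, 10.70, 10.88 and 10.89 in normoxic neuroblasts. It read 9.69, 9.79, 9.97 and 10.09 in hypoxic glomus cells, against 10.74, 10.70, 10.97 and 10.52 in normoxic glomus cells. The groups did not overlap in either population, and Hspa5 fell by 1.05 ± 0.21 in neuroblasts and by 0.85 ± 0.21 in glomus cells (limma adjusted p = 0.00114 and 0.00837). Its nucleotide exchange partner Hyou1 read 4.93, 5.24, 4.96 and 5.39 in hypoxic neuroblasts, against 5.78, 6.15, 7.05 and 6.80 in normoxic neuroblasts. In glomus cells Hyou1 read 5.22, 5.49, 5.28 and 5.34 under hypoxia, against 6.38, 6.53, 6.86 and 7.15 in normoxia. Hyou1 thus fell without overlap in both, by 1.31 ± 0.24 and 1.40 ± 0.24 (limma adjusted p = 0.00065 and 0.000691).

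Hsp90b1, the ER member of the Hsp90 family, read 8.08, 9.32, 9.18 and 9.07 in hypoxic neuroblasts, against 9.54, 9.91, 9.53 and 9.88 in normoxic neuroblasts. It fell there by 0.80 ± 0.25 (limma adjusted p = 0.0214), the lowest array being the one least like its group, and by limma the call was lost without that array, hypoxic neuroblast replicate 1 (-0.52, adjusted p = 0.0621), and without normoxic neuroblast replicate 2 (0.0534) or 4 (0.0568) or when only the neuroblast groups were fitted (0.0619). In glomus cells its difference was -0.55 ± 0.25 (limma adjusted p = 0.138), and it passed there without hypoxic neuroblast replicate 1, which enters through the shared spread (0.0395), and with array weights (0.0376).

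The disulfide isomerases did not move as one. P4hb, which also serves as a subunit of collagen prolyl hydroxylase, read 7.64, 8.07, 7.57 and 8.39 in hypoxic neuroblasts, against 9.15, 9.17, 9.69 and 9.30 in normoxic neuroblasts. It read 8.12, 8.87, 8.43 and 8.45 in hypoxic glomus cells, against 9.61, 9.55, 9.73 and 9.72 in normoxic glomus cells. P4hb fell without overlap by 1.41 ± 0.20 and 1.19 ± 0.20 (limma adjusted p = 6.88e-05 and 0.000604). Pdia3, the isomerase that works with Calr and Canx, fell by 0.71 ± 0.19 in each population (limma adjusted p = 0.01 in neuroblasts and 0.0145 in glomus cells), and its glomus cell call was lost without normoxic glomus replicate 4 (0.0566) and its neuroblast call when only the neuroblast groups were fitted (0.0534). Pdia4 fell in neuroblasts by 0.78 ± 0.26 (limma adjusted p = 0.0313) with groups that overlapped, and this call was lost without normoxic neuroblast replicate 2, 3 or 4 or hypoxic neuroblast replicate 1 or 3 (adjusted p of 0.0629 to 0.0911). It was also lost under quantile normalization (-0.59, limma adjusted p = 0.0855), with array weights (0.0506) and when only the neuroblast groups were fitted (0.0789). In glomus cells Pdia4 differed by -0.48 ± 0.26 (adjusted p = 0.224). Pdia6, of the same family, differed by 0.00 ± 0.26 in neuroblasts and -0.26 ± 0.26 in glomus cells (limma adjusted p = 0.994 and 0.518).

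Sdf2l1, a cofactor of the ER DnaJ proteins, went the other way. It read 6.91, 6.96, 7.27 and 7.17 in hypoxic neuroblasts, against 5.87, 6.50, 6.40 and 6.13 in normoxic neuroblasts. It read 7.52, 7.04, 6.80 and 7.36 in hypoxic glomus cells, against 6.61, 6.76, 6.12 and 6.05 in normoxic glomus cells. Every hypoxic value lay above the normoxic values of its population, and Sdf2l1 rose by 0.85 ± 0.21 and 0.79 ± 0.21 (limma adjusted p = 0.00549 and 0.0124). Relative to the array medians the rise was 0.57 in neuroblasts and 0.58 in glomus cells and did not pass (adjusted p = 0.0638 and 0.0757), and without normoxic glomus replicate 4 the glomus cell value was 0.68 (adjusted p = 0.0522).

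The other chaperones did not pass in either population. Of these, 3 are DnaJ cofactors of BiP. Dnajb11 was level, with 6.38 ± 0.43 in hypoxic and 6.37 ± 0.35 in normoxic neuroblasts and 6.29 ± 0.22 in hypoxic and 6.29 ± 0.09 in normoxic glomus cells (SD, n = 4 each). Dnajb9 differed by 0.39 ± 0.22 and 0.21 ± 0.22 (limma adjusted p = 0.17 and 0.54). Dnajc3, which also inhibits PERK, differed by -0.47 ± 0.29 in neuroblasts and 0.46 ± 0.29 in glomus cells (limma adjusted p = 0.204 and 0.28), and it passed in neuroblasts without hypoxic neuroblast replicate 4 (-0.76, 0.0296), which read 8.22 against 6.43 to 7.56 for the other hypoxic neuroblast arrays. Creld2 and Manf, both secreted ER stress proteins, differed by 0.03 to 0.39 in the 2 populations, with limma adjusted p-values of 0.203 or more.

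**Figure D3:**
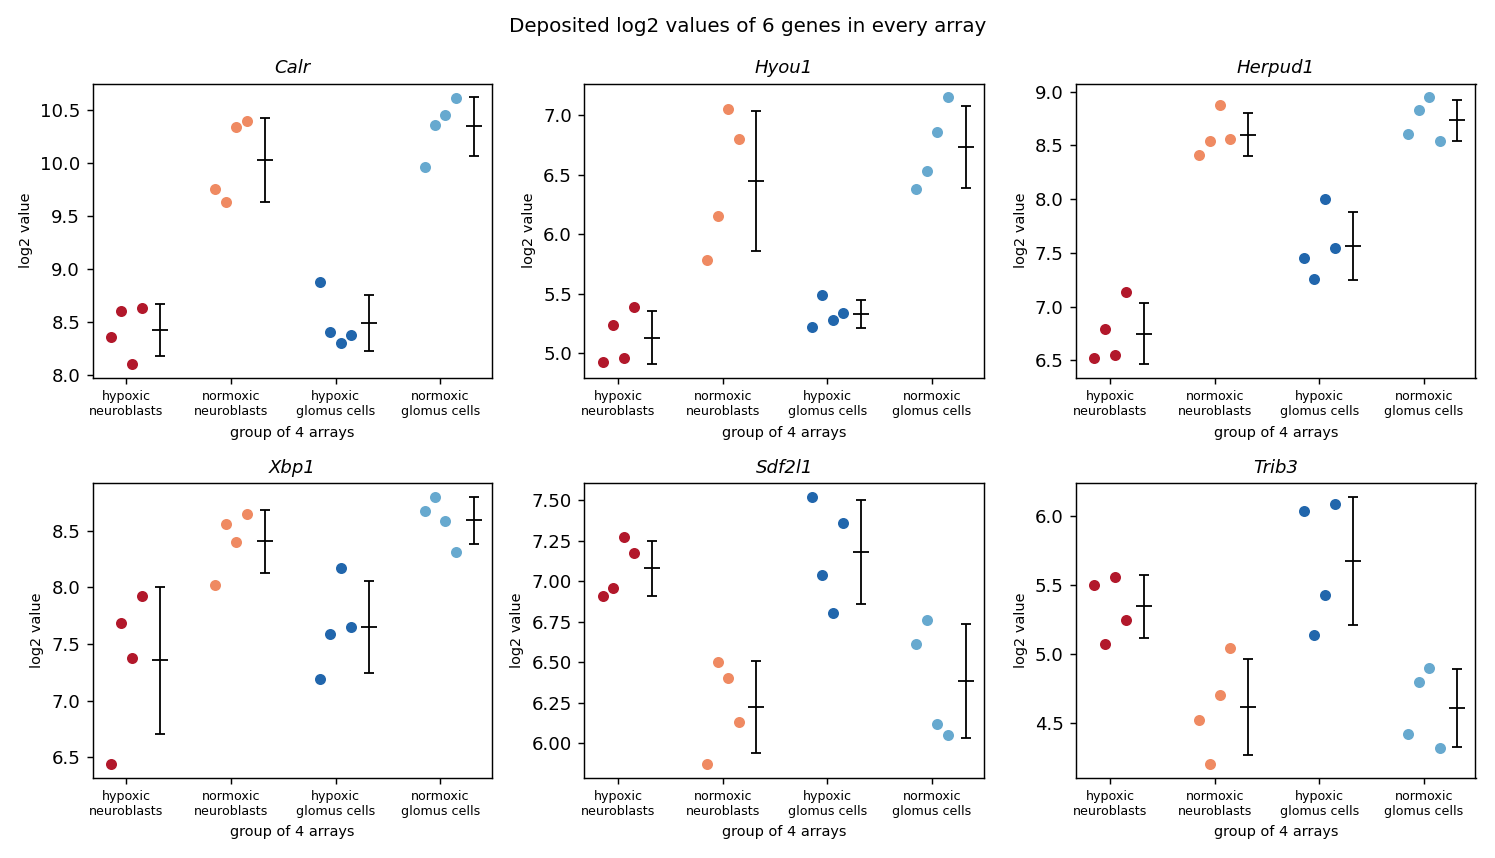
Deposited log2 values of Calr, Hyou1, Herpud1, Xbp1, Sdf2l1 and Trib3 in each of the 4 arrays per group (points), with the group mean ± SD (black bars). The hypoxic values of the first 4 genes lie below, and those of Sdf2l1 and Trib3 above, the normoxic values of the same population.

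Of the 6 genes of ER-associated degradation, which returns misfolded proteins to the cytosol for destruction, 4 fell in each population (medians -1.04 in neuroblasts and -0.92 in glomus cells). Herpud1, a membrane scaffold of the degradation complex, read 6.52, 6.79, 6.55 and 7.14 in hypoxic neuroblasts, against 8.41, 8.54, 8.88 and 8.56 in normoxic neuroblasts. It read 7.45, 7.26, 8.0 and 7.55 in hypoxic glomus cells, against 8.61, 8.83, 8.95 and 8.54 in normoxic glomus cells. No groups overlapped, and Herpud1 fell by 1.85 ± 0.19 in neuroblasts and by 1.17 ± 0.19 in glomus cells (limma adjusted p = 3.34e-06 and 0.000415), 3.60-fold and 2.25-fold.

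Syvn1 encodes HRD1, the ubiquitin ligase at the core of this complex. It read 6.68, 6.77, 7.31 and 7.69 in hypoxic neuroblasts, against 8.35, 8.39, 8.51 and 8.55 in normoxic neuroblasts, and fell by 1.34 ± 0.22 (limma adjusted p = 0.00018). It read 7.49, 7.25, 7.63 and 6.93 in hypoxic glomus cells, against 8.72, 8.54, 8.78 and 8.35 in normoxic glomus cells, and fell by 1.27 ± 0.22 (limma adjusted p = 0.000519). Its adaptor Sel1l fell by 1.02 ± 0.20 in neuroblasts without overlap (limma adjusted p = 0.00116). In glomus cells Sel1l fell by 0.67 ± 0.20 with overlap (limma adjusted p = 0.0286), a call that was lost without normoxic glomus replicate 2, 3 or 4 or hypoxic glomus replicate 3 or 4 (adjusted p of 0.0688 to 0.0995) and when only the glomus cell groups were fitted (0.0505).

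Edem1, a lectin that hands misfolded glycoproteins to the complex, fell by 1.05 ± 0.32 in neuroblasts with overlap and by 1.17 ± 0.32 in glomus cells without it (limma adjusted p = 0.0182 and 0.0142). Quantile normalization gave -0.97 and -1.0 for Edem1 and ended both calls (limma adjusted p = 0.0728 and 0.0848), and fitting only the neuroblast groups ended the first (0.0767). Among the derlins, channel proteins of the same pathway, Derl1 differed by -0.62 ± 0.28 in neuroblasts and -0.15 ± 0.28 in glomus cells (limma adjusted p = 0.0957 and 0.731), and it passed in neuroblasts without hypoxic neuroblast replicate 3 (-0.89, adjusted p = 0.0192). Derl3 differed by 0.09 ± 0.17 and 0.13 ± 0.17 (limma adjusted p = 0.675 and 0.635).

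Sensors and factors fell in 3 of 5 cases in each population, with medians of -0.88 in neuroblasts and -0.75 in glomus cells. Xbp1, the factor downstream of IRE1, read 6.44, 7.69, 7.38 and 7.92 in hypoxic neuroblasts, against 8.02, 8.56, 8.40 and 8.65 in normoxic neuroblasts. It read 7.19, 7.59, 8.17 and 7.65 in hypoxic glomus cells, against 8.67, 8.80, 8.59 and 8.31 in normoxic glomus cells. The groups did not overlap, and Xbp1 fell by 1.05 ± 0.28 and 0.94 ± 0.28 (limma adjusted p = 0.00838 and 0.0228). The glomus cell call of Xbp1 was lost without normoxic glomus replicate 2 or 3 or hypoxic glomus replicate 1 or 2 (adjusted p of 0.051 to 0.0807). The table gives 1 value for Xbp1 and none for its spliced form.

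Atf6 itself read 7.40, 7.93, 7.64 and 8.0 in hypoxic neuroblasts, against 8.77, 8.58, 9.14 and 8.95 in normoxic neuroblasts, and fell by 1.12 ± 0.22 (limma adjusted p = 0.0012). It fell by 0.75 ± 0.22 in glomus cells with overlap (limma adjusted p = 0.0261), a call that was lost without normoxic glomus replicate 3 or 4 or hypoxic glomus replicate 1, 2 or 4 (adjusted p of 0.0554 to 0.104). The sensor kinase genes passed in 1 population each. Ern1, which encodes IRE1, fell in glomus cells by 1.08 ± 0.25 (limma adjusted p = 0.00499) and differed by -0.60 ± 0.25 in neuroblasts (adjusted p = 0.0714, and 0.0184 without hypoxic neuroblast replicate 3). Eif2ak3, which encodes PERK, fell in neuroblasts by 0.88 ± 0.19 (limma adjusted p = 0.00198) and differed by -0.30 ± 0.19 in glomus cells (adjusted p = 0.282). By limma's interaction test, neither of these 2 genes differed between the populations in its hypoxia difference past the threshold (Ern1 0.48 ± 0.35, adjusted p = 0.858, and Eif2ak3 -0.58 ± 0.27, adjusted p = 0.748). Ppp1r15a, the phosphatase subunit that reverses the action of PERK, differed by -0.25 ± 0.25 and 0.15 ± 0.25 (limma adjusted p = 0.423 and 0.693).

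The Atf4 arm had 1 riser and 0 fallers of 5 in each population, with a median of 0.03 in neuroblasts and 0.16 in glomus cells. Centred on the array medians these medians turned to -0.25 and -0.06, and quantile normalization gave 0.12 and 0.31, so the direction of the arm as a whole depends on the scaling. Trib3, a pseudokinase induced by ATF4 and CHOP, read 5.50, 5.07, 5.56 and 5.25 in hypoxic neuroblasts, against 4.52, 4.20, 4.70 and 5.04 in normoxic neuroblasts. It read 6.04, 5.14, 5.43 and 6.09 in hypoxic glomus cells, against 4.42, 4.80, 4.90 and 4.32 in normoxic glomus cells. The hypoxic values lay above the normoxic ones in both. Trib3 rose by 0.73 ± 0.24 in neuroblasts (limma adjusted p = 0.0262) and by 1.06 ± 0.24 in glomus cells (adjusted p = 0.00396). The neuroblast call was lost relative to the array medians (0.45, adjusted p = 0.222), under quantile normalization (0.59, adjusted p = 0.106), with array weights (0.0664) and without normoxic neuroblast replicate 1 or 2 or hypoxic neuroblast replicate 1 or 3 (adjusted p of 0.0548 to 0.0804).

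The other 4 genes of the arm did not pass. Atf4 read 9.79, 9.19, 9.57 and 10.01 in hypoxic neuroblasts, against 10.03, 9.33, 10.17 and 9.67 in normoxic neuroblasts. It read 10.49, 10.22, 10.36 and 10.19 in hypoxic glomus cells, against 10.03, 10.39, 10.35 and 10.24 in normoxic glomus cells. Its hypoxic and normoxic values overlapped, with differences of -0.16 ± 0.20 and 0.06 ± 0.20 (limma adjusted p = 0.541 and 0.854). ATF4 is known to be controlled mainly at translation, which the array does not read. Ddit3, which encodes CHOP, was 7.61 ± 0.57 in hypoxic and 7.10 ± 0.24 in normoxic neuroblasts, and 7.66 ± 0.42 in hypoxic and 7.5 ± 0.34 in normoxic glomus cells (SD, n = 4 each). Its difference of 0.51 ± 0.27 in neuroblasts did not pass (limma adjusted p = 0.149) but did under quantile normalization (0.80, adjusted p = 0.0228). Asns, asparagine synthetase, differed by -0.15 ± 0.30 and 0.43 ± 0.30 and Chac1, which breaks down glutathione, by 0.03 ± 0.17 and -0.11 ± 0.17 in neuroblasts and glomus cells (limma adjusted p of 0.338 or more).

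**Figure D4:**
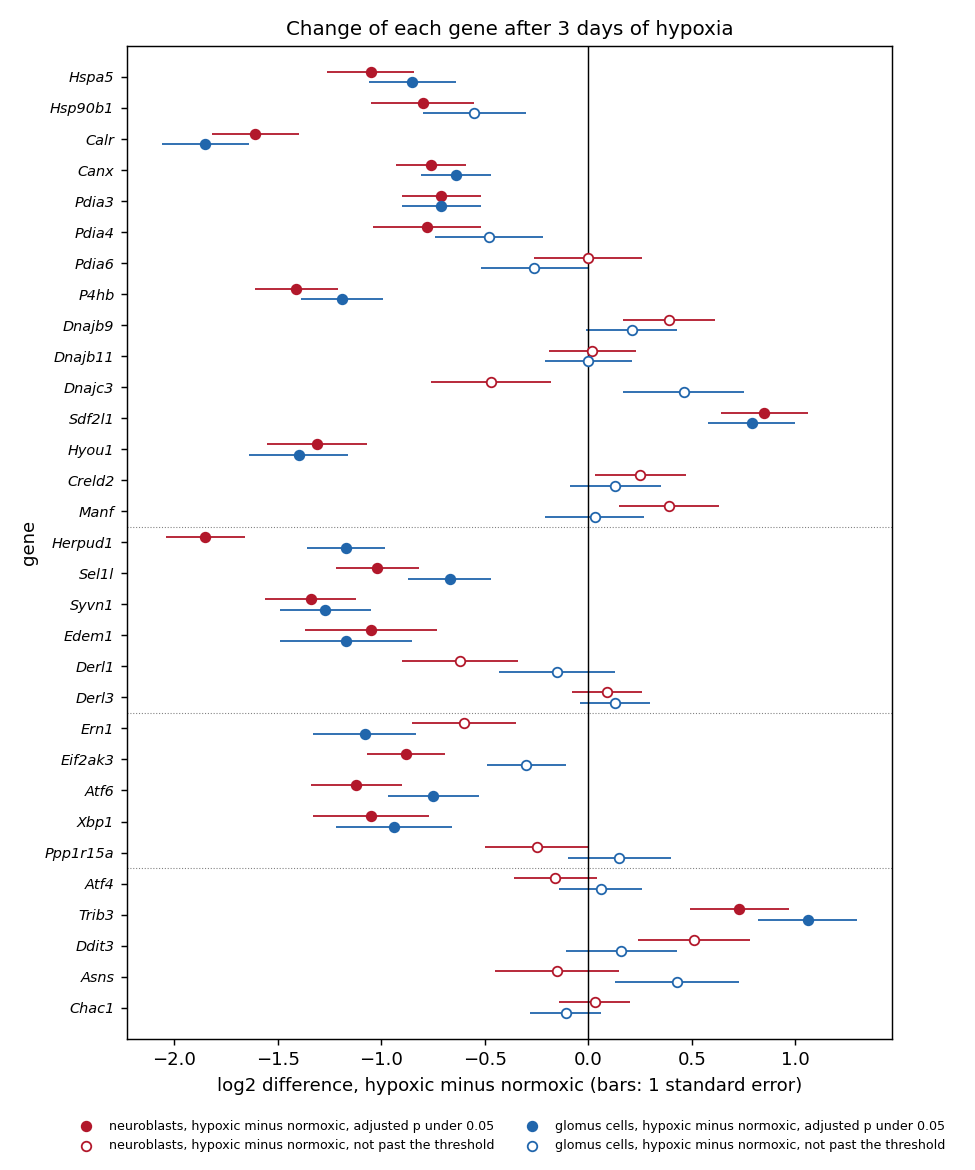
Log2 difference of hypoxic minus normoxic samples with its limma standard error for the 31 genes, in neuroblasts (red) and glomus cells (blue), filled where the adjusted p was under 0.05. The filled points lie left of 0, farthest for Calr in glomus cells and Herpud1 in neuroblasts (-1.85 each), except those of Sdf2l1 and Trib3, which lie right of it.

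To set the chaperones against the Atf4 arm, each gene was centred on its mean over all arrays and the mean of the 5 Atf4 arm genes was taken from the mean of the 15 chaperones in each array. This gap was -0.36, -0.01, -0.60 and -0.09 in hypoxic neuroblasts, against 0.10, 0.50, 0.49 and 0.48 in normoxic neuroblasts. It was -0.59, -0.22, -0.40 and -0.54 in hypoxic glomus cells, against 0.31, 0.31, 0.17 and 0.43 in normoxic glomus cells. Thus the chaperones lay below the Atf4 arm, relative to each gene's own mean, in 8 of 8 hypoxic arrays and above it in 8 of 8 normoxic arrays. The centring over all arrays ties the hypoxic and normoxic signs together, so these counts are not separate results. The hypoxia difference of the gap was -0.66 in neuroblasts and -0.74 in glomus cells, beside SDs of 0.10 to 0.27 over the arrays of a group. Without hypoxic neuroblast replicate 1 the neuroblast value was -0.63. No p-value is given, since the genes were chosen with results known. Trib3 and Chac1 of the arm and Hyou1 of the chaperones lay in the second brightest 25% of probes. The median of all probes there was 0.16 in neuroblasts and 0.12 in glomus cells, against -0.33 and -0.17 in the brightest 25%. The part of brightness in the gap was not tested.

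The chaperone mean behind this gap was -0.32 ± 0.29 in hypoxic and 0.15 ± 0.32 in normoxic neuroblasts, and -0.12 ± 0.07 in hypoxic and 0.30 ± 0.08 in normoxic glomus cells (SD, n = 4 each). The Atf4 arm mean was -0.06 ± 0.25 in hypoxic and -0.25 ± 0.16 in normoxic neuroblasts, and 0.31 ± 0.18 in hypoxic and -0.01 ± 0.14 in normoxic glomus cells. The chaperone mean overlapped between hypoxic (up to 0.03) and normoxic (from -0.30) neuroblasts but not in glomus cells. The Atf4 arm mean overlapped between hypoxic and normoxic arrays in both populations. Trib3, the 1 called gene of that arm, had the largest difference of its 5 genes in both populations, and the other 4 differed by -0.16 to 0.51 in neuroblasts and by -0.11 to 0.43 in glomus cells. With medians over genes in place of means the hypoxia difference of the gap was -0.74 in neuroblasts and -0.64 in glomus cells. Degradation genes averaged -0.57 ± 0.37 in hypoxic and 0.39 ± 0.05 in normoxic neuroblasts, and -0.27 ± 0.08 in hypoxic and 0.45 ± 0.11 in normoxic glomus cells, with no overlap in either population.

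**Figure D5:**
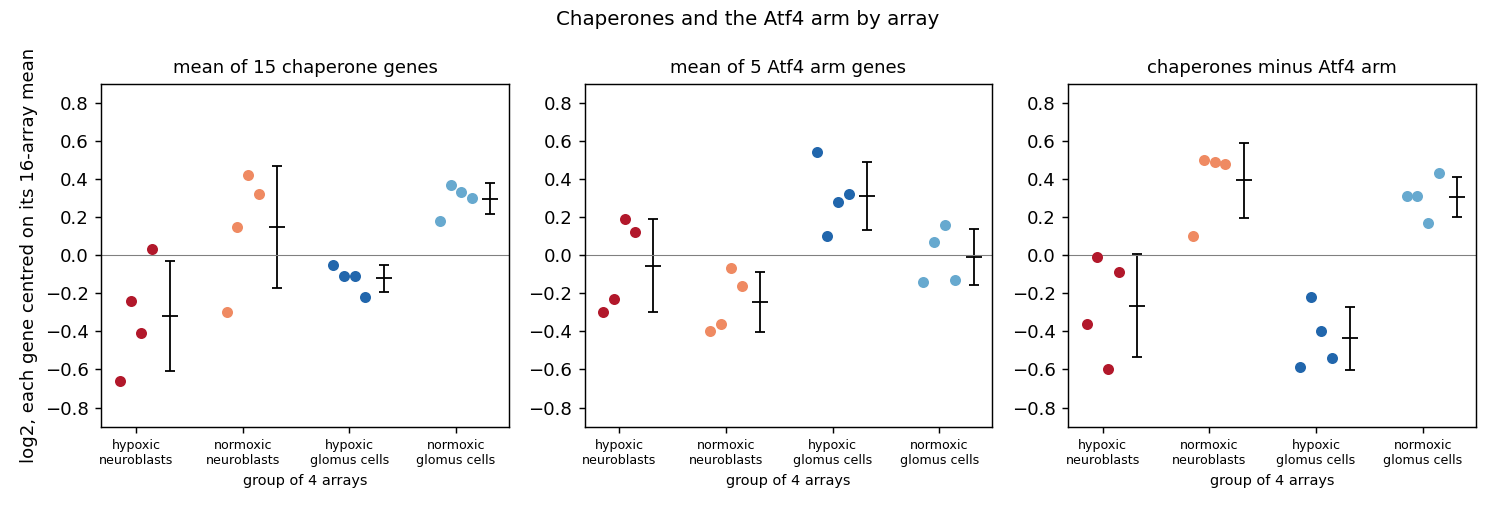
Mean of the chaperones, mean of the Atf4 arm and their gap in each array (points, log2, each gene centred on its mean over all 16 arrays) in the hypoxic and normoxic neuroblasts and the hypoxic and normoxic glomus cells, with the group mean ± SD. The gap is below 0 in every hypoxic array (-0.60 to -0.01) and above 0 in every normoxic array (0.10 to 0.50).

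The promoters shown above can be read beside these calls, with no test. All 25 members with a promoter gave 13 falls and 2 rises in neuroblasts and 10 falls and 2 rises in glomus cells. Over all probes 13.7% fell in neuroblasts and 9.5% in glomus cells. Of the 11 members with an ERSE or ERSE-II, 7 fell and 0 rose in neuroblasts and 6 fell and 0 rose in glomus cells. Of the 14 members whose promoter held neither, 6 fell and 2 rose in neuroblasts and 4 fell and 2 rose in glomus cells. Genes with the same element did not all pass: Hspa5, Calr and Xbp1 fell with an ERSE while Creld2 and Dnajc3 with an ERSE did not pass, and Herpud1 and Hyou1 fell with an ERSE-II while Dnajb11 did not pass. Of the 3 with a CARE, Trib3 rose, Herpud1 fell and Chac1 did not pass, in each population.

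Between the populations, the question was whether neuroblasts carried another level of this machinery than glomus cells in the same air. In normoxia 0 of 31 members passed (limma, with 4 at an unadjusted p under 0.05), where 0.996% of all probes were higher and 0.828% lower in neuroblasts, and the member median was -0.16. In hypoxia 0 of 31 passed as well (limma, with 4 at an unadjusted p under 0.05), where 0.138% of all probes were higher and 0.145% lower, with a member median of -0.20. Dnajc3 came nearest in normoxia. It read 7.40, 8.05, 7.88 and 7.93 in neuroblasts, against 6.85, 7.06, 7.16 and 6.85 in glomus cells, groups that did not overlap. Its difference was 0.84 ± 0.29 (limma adjusted p = 0.226), and it passed with array weights (adjusted p = 0.0344) or with the normoxic arrays alone (0.0363). In hypoxia Herpud1 came nearest, at -0.82 ± 0.19 (limma adjusted p = 0.0905), and it passed without hypoxic neuroblast replicate 4 (-0.94, adjusted p = 0.049). Each of the 4 Herpud1 values of hypoxic neuroblasts, up to 7.14, lay below those of hypoxic glomus cells, which began at 7.26.

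The interaction, taken as the hypoxia effect of neuroblasts less that of glomus cells, passed for 0 of 31 members by limma, with 3 at an unadjusted p under 0.05, where 0.0263% of all probes were higher and 0.0526% lower. Those 3 were Dnajc3 (-0.93 ± 0.40, limma adjusted p = 0.729), Herpud1 (-0.68 ± 0.27, adjusted p = 0.684) and Eif2ak3 (-0.58 ± 0.27, adjusted p = 0.748). Over the 31 members the interaction ranged from -0.93 to 0.48 with a median of -0.11, and a p that misses the threshold does not show that the populations responded alike.

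Other genes of the same pathways were followed in 4 lists. Their counts stand beside 13.7% of all probes falling and 18.4% rising in neuroblasts, and 9.5% and 9.37% in glomus cells. In the brightest 25% of probes 37.2% fell and 19.6% rose in neuroblasts, and 26.7% and 17.2% in glomus cells. Of 39 other folding and translocation genes, 10 fell and 7 rose in neuroblasts (median -0.07) and 11 fell and 7 rose in glomus cells (median -0.18). Those named here have the smallest p. Srp19, of the signal recognition particle, rose by 1.98 ± 0.23 and 1.75 ± 0.23, and the ER prolyl isomerase Fkbp2 by 1.61 ± 0.21 and 1.18 ± 0.21 (limma adjusted p of 0.000837 or less). Uggt1, the folding sensor of glycoproteins, fell by 1.55 ± 0.21 and 1.11 ± 0.21 (limma adjusted p = 3.06e-05 and 0.00107). Sec61b, a subunit of the translocation channel, rose by 1.43 ± 0.19 in neuroblasts and by 0.71 ± 0.19 in glomus cells (limma adjusted p = 3.53e-05 and 0.0151). The glomus cell call of Sec61b was lost relative to the array medians (0.49, limma adjusted p = 0.149) and without hypoxic glomus replicate 1 (0.0553). Dnajb2, a DnaJ cochaperone, fell by 1.79 ± 0.24 in neuroblasts and by 1.44 ± 0.24 in glomus cells (limma adjusted p = 3.74e-05 and 0.000513). In normoxia Sec61b was lower in neuroblasts than in glomus cells (-0.91 ± 0.19, limma adjusted p = 0.0167), the 1 call of the list between the populations, and this call was lost without normoxic neuroblast replicate 1 or 2 or normoxic glomus replicate 3 or 4 (adjusted p of 0.0567 to 0.0789).

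Of 25 degradation genes outside the members, 15 fell and 2 rose in neuroblasts (median -0.87) and 9 fell and 2 rose in glomus cells (median -0.52). Nfe2l1, the factor that raises proteasome genes, fell by 1.33 ± 0.19 and 1.43 ± 0.19, and the mannosidase Man1b1 by 1.38 ± 0.21 and 1.51 ± 0.21 (limma adjusted p of 0.000109 or less). Bag6, a holdase for extracted chains, fell by 1.49 ± 0.20 in neuroblasts and by 1.07 ± 0.20 in glomus cells, the lectin Os9 by 1.27 ± 0.20 and 1.02 ± 0.20, and the conjugating enzyme Ube2g2 by 1.35 ± 0.28 and 1.60 ± 0.28 (limma adjusted p of 0.00203 or less). Erlec1, another ER lectin, rose by 0.84 ± 0.20 and 1.09 ± 0.20 (limma adjusted p = 0.00504 and 0.00113), and relative to the array medians its neuroblast call was lost (0.56, adjusted p = 0.0972).

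Of 22 other genes of stress signalling, 7 fell and 1 rose in neuroblasts (median -0.51) and 6 fell and 0 rose in glomus cells (median -0.24). Mbtps1, the protease that cuts ATF6 in the Golgi, fell by 1.71 ± 0.26 and 1.60 ± 0.26, and Atf6b, a relative of Atf6, by 1.49 ± 0.26 and 1.70 ± 0.26 (limma adjusted p of 0.000327 or less). Ppp1r15b, the standing eIF2alpha phosphatase subunit, fell by 1.12 ± 0.23 and 0.89 ± 0.23 (limma adjusted p = 0.00149 and 0.0115). Wfs1, an ER membrane protein, differed by -0.29 ± 0.22 in neuroblasts (limma adjusted p = 0.306) and fell by 0.76 ± 0.22 in glomus cells (0.0242). Its glomus cell call was lost under quantile normalization (-0.60, limma adjusted p = 0.0686) and without normoxic glomus replicate 3 or 4 or hypoxic glomus replicate 2 or 4 (0.0522 to 0.0896). Ern2, the epithelial relative of Ern1, rose by 0.66 ± 0.19 in neuroblasts (limma adjusted p = 0.0125) and differed by 0.34 ± 0.19 in glomus cells (0.219). Its neuroblast call was lost relative to the array medians (0.38, limma adjusted p = 0.109), under quantile normalization (0.43, 0.115) and when only the neuroblast groups were fitted (0.0639).

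The 41 other Atf4 targets were mixed, with 11 falling and 10 rising in neuroblasts (median 0.03) and 3 falling and 6 rising in glomus cells (median 0.07). Centred on the array medians, the split was 12 and 2 in neuroblasts and 4 and 0 in glomus cells, with medians of -0.26 and -0.15. In neuroblasts the serine synthesis gene Psph rose by 1.29 ± 0.25 and the mitochondrial folate gene Mthfd2 by 1.30 ± 0.31, while Sesn1 fell by 1.24 ± 0.26 and the stress factor Atf3, which is also in the dissociation stress list, by 1.74 ± 0.38 (limma adjusted p of 0.00442 or less). In glomus cells Psph differed by 0.65 ± 0.25, Mthfd2 by 0.67 ± 0.31 and Atf3 by 0.08 ± 0.38 (limma adjusted p of 0.081 or more), and Sesn1 fell by 0.94 ± 0.26 (0.0154), a call that was lost without normoxic glomus replicate 2 (0.0586) or hypoxic glomus replicate 1 (0.0552). In glomus cells the lipoprotein receptor gene Vldlr rose by 0.90 ± 0.23, Eif4ebp1, an inhibitor of translation, by 0.57 ± 0.15 and Cebpg, a partner of ATF4, by 0.64 ± 0.17, while the alanyl-tRNA synthetase gene Aars1 fell by 0.83 ± 0.18 (limma adjusted p of 0.0138 or less). Relative to the array medians these 3 rises did not pass (limma adjusted p of 0.0737 to 0.142). In neuroblasts Vldlr rose by 0.70 ± 0.23 and Cebpg by 0.66 ± 0.17, calls that were also lost relative to the array medians (limma adjusted p = 0.259 and 0.164), Eif4ebp1 differed by 0.28 ± 0.15 (0.161), and Aars1 fell by 0.55 ± 0.18 (0.0281), a call that was lost under quantile normalization (-0.30, 0.227). In all, the neuroblast call of Vldlr was lost in 7 and that of Aars1 in 6 of 23 alternatives (limma adjusted p up to 0.259 and 0.227), among them the fits without hypoxic neuroblast replicate 3. In normoxia Atf3 was higher in neuroblasts than in glomus cells (1.63 ± 0.38, limma adjusted p = 0.0294). This call was lost under quantile normalization (1.60, limma adjusted p = 0.071), when only the normoxic groups were fitted (0.0806) and without normoxic neuroblast replicate 1 or 2 or normoxic glomus replicate 3 or 4 (0.0922 to 0.127). In hypoxia 0 genes of the 4 lists passed between the populations by limma, with 9, 5, 4 and 10 at an unadjusted p under 0.05 in the order of the lists.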

How the data were processed

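RNA of 16 samples was measured on 1-colour Affymetrix rat gene arrays. The values are the authors' deposited log2 values of 30429 probes, 0.87 to 13.33. The base was inferred from that range. Transcriptome Analysis Console was used per the submitters' processing notes, and the sources used here give neither its version nor its background correction and normalization. Gene names come from the platform annotation, with 18511 single-gene probes, 575 with several genes and the rest with none, and 18394 of the single-gene probes have a gene ID found in the reference gene table.

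The log2 values were tested as deposited, with no filter, by limma 3.58.1 in R 4.3.3 (lmFit and eBayes, 1 mean per group, all 16 arrays, 12 residual degrees of freedom, two-sided), checked on simulated data. P-values were adjusted by Benjamini-Hochberg over all 30429 probes within each of 5 comparisons, with a threshold of 0.05 on the adjusted p. Values after ± are limma standard errors for differences and SD for group values. The number of arrays limits the precision. Figures were made with Python 3.11.15 and matplotlib 3.10.9.

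The members, the 4 pathway lists and the 9 marker lists were chosen with earlier results of these data known. All measured members could be named, and up to 4 genes with the smallest unadjusted p per pathway list and comparison, and defining markers. The marker lists were glomus, neuroblast, macrophage, endothelial, fibroblast, pericyte and smooth muscle, type II and glial, B and plasma cell, and dissociation stress genes. Alternatives were other scalings, filters, variance models, thresholds and leaving out each array. Promoters are RefSeq's of GRCr8, and sums of markers are of linear values, 2 to the power of the log2 value.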

Additional observations from a re-analysis of the deposited data

Results flagged for a closer look

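In 7 of 136 groups of 4 arrays (31 genes, the chaperone mean, the Atf4 arm mean and their gap), 1 array lay far from the other three by Dixon's criterion on the gap to the nearest array as a share of the group's range. Chance gives about 1 in 20. Pdia6 was at 7.40 in normoxic neuroblast replicate 1, below the others, and at 7.76 in hypoxic glomus replicate 2, also below. Creld2 was at 7.49 in hypoxic neuroblast replicate 4, above the others. Dnajb9 at 8.49 and Sel1l at 4.94 were low, both in normoxic glomus replicate 1, and Manf at 9.63 was high in normoxic glomus replicate 2. The gap of chaperones minus Atf4 arm was 0.10 in normoxic neuroblast replicate 1, below the 0.48 to 0.50 of the others.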

How the results depend on the processing

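No called member changed direction under the alternatives tried, but centring the arrays turned the medians of the Atf4 arm (-0.25 in neuroblasts and -0.06 in glomus cells, from 0.03 and 0.16) and the balance of the other Atf4 targets in glomus cells (0 higher and 4 lower, in place of 6 and 3). At an adjusted p under 0.01 the glomus cell count of 15 became 8, and with a difference of at least 2-fold it became 8, while the neuroblast count of 17 became 10 at 2-fold. Between populations in normoxia, array weights and fitting only the groups compared each gave 1 called member in place of 0. Leaving out 1 array at a time gave 14 to 18 called members in neuroblasts, 10 to 16 in glomus cells, 0 to 0 between populations in normoxia and for the interaction, and 0 to 1 in hypoxia, where the 1 came without hypoxic neuroblast replicate 4. The gap differences ran from -0.76 to -0.55 in neuroblasts, -0.81 to -0.69 in glomus cells, 0.05 to 0.19 and 0.09 to 0.29 between populations in normoxia and hypoxia, and -0.01 to 0.20 for the interaction. Of the called members, 11 of 17 in neuroblasts and 8 of 15 in glomus cells passed in all 23 alternatives. The cause of the lost calls was not tested.

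The replicate numbers shared by the groups gave no pairing: same-number correlations of deviations ran from -0.105 to 0.205. With the replicate block 18 members passed in neuroblasts, where Derl1 joined (-0.62, adjusted p = 0.0416), 15 in glomus cells and 0 in the other comparisons. A block within condition could not be fitted for the hypoxia differences, and averaging the probes of a gene was not run, since each member has 1 probe.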

Other observations

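The spread between arrays of a group differed by gene and condition. Edem1 ran from 4.90 to 7.02 in hypoxic neuroblasts (SD 0.92, n = 4), the lowest value being in replicate 1, against 6.99 to 7.51 in normoxic neuroblasts (SD 0.22). Pdia3 spanned 9.95 to 9.97 in hypoxic glomus cells (SD 0.01), against 10.41 to 10.93 in normoxic glomus cells (SD 0.22). Most members, not only Edem1, were lowest of their hypoxic neuroblast group in replicate 1, the array least like its group. Among them were Ern1 (5.30), Derl1 (5.51), Asns (6.47), Dnajc3 (6.43), Hsp90b1 (8.08) and Xbp1 (6.44). The called genes Hspa5 (9.18), Canx (9.19), Herpud1 (6.52), Syvn1 (6.68) and Atf6 (7.40) were lowest there too. Others, such as Calr, P4hb and Trib3, were lowest in another replicate.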
